A study of Arabidopsis thaliana with 15 samples.

Results

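GFP-MYB3R4mNES, a form of the Arabidopsis thaliana transcription factor MYB3R4, was compared with GFP-MYB3R4 through the chromatin sites called for each by chromatin immunoprecipitation and sequencing (ChIP-seq). The comparison used the peak lists of 3 GFP-MYB3R4 libraries and 2 GFP-MYB3R4mNES libraries. Peaks on nuclear chromosomes 1 to 5 were kept, except those on chromosome 2 between 3.2 and 3.7 Mb. This left 4045 of the 4915 peaks deposited for these 5 libraries, out of 43248 peaks in the whole series of 8 ChIP libraries, whose other 3 are of the related factor MYB3R1. Both tagged proteins were driven by pMYB3R4 in plants of the Col0 background, and the labels name no allele that removes the plants' own MYB3R4. The tissue was dissected inflorescence meristems of plants grown in long days, taken shortly after bolting, and the antibody was raised against GFP. Each form also had 2 input samples, and untagged plants were not among the ChIP samples. Whether replicates are separate plantings or repeats on 1 batch of tissue is not given, so the p-values below cover only the spread among these libraries.

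MYB3R proteins are plant MYB transcription factors with 3 MYB repeats, the arrangement also found in animal MYB proteins. They are known for binding mitosis-specific activator (MSA) elements in the promoters of genes transcribed at the G2 to M transition, among them B-type cyclins and genes of the cell plate. Within this family MYB3R4 is known as an activator of such genes. The labels leave mNES unexplained. In the field, NES usually means nuclear export signal, a short stretch by which a protein is carried out of the nucleus.

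Features of the files bear on every comparison. The peak names inside the list labelled mNES replicate 1 carry the short name of another library, the one that the labels call MYB3R4 replicate 3. The lists are nevertheless different, with 171 and 300 peaks and 0 peaks of identical start and end, and the library is called here by its label. The files also follow 2 styles of name, with MYB3R4 replicates 1 and 2 in the first style and MYB3R4 replicate 3 and both mNES libraries in the second. The labels say that some libraries were made in-house and some by a company, without saying which, so the styles may or may not mark that split. Read depth was not given, so a site without a peak was only not called at whatever depth that library had.

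Fewer peaks were called for the mNES form. The lists of MYB3R4 replicates 1, 2 and 3 held 654, 2705 and 300 peaks, and those of mNES replicates 1 and 2 held 171 and 215. Every MYB3R4 list was longer than both mNES lists, but the MYB3R4 lists differed from each other by more than the forms did. The means were 1220 ± 1298 (SD, n = 3) and 193 ± 31.1 (SD, n = 2), a difference of 1027 peaks (exact permutation test, two-sided, p = 0.2, the smallest p that 3 against 2 libraries allow here). Within the second style of name the difference was 107 peaks, with 1 MYB3R4 library. Median fold enrichment did not follow list length. The median fold enrichment over input at the summit, as the authors deposited it, was 1.80, 2.04 and 2.46 for MYB3R4 and 2.25 and 2.68 for mNES. Because list lengths differed so much, lists were compared both in full and after keeping the 171 peaks with the highest -log10 p of each.

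Fold enrichment was compared at the sites called in all 5 libraries. Overlapping peaks (1 bp or more) of the 5 full lists merged into 3127 sites, and 108 of these had a peak in all 5 libraries. The common sites named below were picked from these 108, so their sharing by both forms follows from the choice. OLEO1 (AT4G25140) could not be among them. By fold enrichment it ranked 1 in both MYB3R4 replicate 3 and mNES replicate 2, but MYB3R4 replicates 1 and 2 had no peak there. Sharing among the strongest peaks of each list is given further below. The best-ranked of the 108 sites, chr4:1414784-1416353 in the build TAIR10, lies at hemf2 (AT4G03205) and XTH9 (AT4G03210). The second of these genes encodes a xyloglucan-modifying enzyme of the cell wall. Fold enrichment at this site was 5.32, 7.15 and 8.06 in MYB3R4 replicates 1 to 3 and 4.80 and 6.65 in mNES replicates 1 and 2. The 5 summits there lay within 50 bp of each other, and the fold values of the forms overlapped.

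At SAC9 (AT3G59770, chr3:22077684-22079042), which encodes a phosphoinositide phosphatase, fold enrichment was 5.73, 8.03 and 7.90 with MYB3R4. With mNES it was 5.04 and 5.67, both below all 3 MYB3R4 values, and the summits spanned 63 bp. By rank of fold enrichment among the common sites of each library, the forms overlapped at SAC9. The ranks were 2, 1 and 2 with MYB3R4 and 2 and 6 with mNES. At chr5:25721157-25722319, between GCH (AT5G64300) and the arabinogalactan protein gene AGP1 (AT5G64310), fold enrichment was 5.90, 6.71 and 6.97 against 4.62 and 7.16. Here the highest value of the 5 was from an mNES library. At chr1:24055864-24057124, at AT1G64760 and PnsB2 (AT1G64770, a subunit of the plastid NDH complex), it was 5.07, 6.29 and 7.27 against 5.70 and 6.37, and the summits spanned 21 bp.

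SYP111 (AT1G08560), also called KNOLLE, encodes the syntaxin of the forming cell plate and was the best-ranked G2/M gene. Its site, chr1:2710528-2712096, had fold enrichments of 4.63, 6.22 and 6.77 with MYB3R4 and 4.45 and 5.77 with mNES. Both forms thus had this gene among their strong sites, with summits within 55 bp. The other 7 of the 12 best-ranked common sites lay at MRLK and PRA1.B1, AT3G15548 and AT3G15550, PPK1, the ubiquitin-conjugating enzyme gene UBC35, AT3G51730 and the receptor-like kinase gene IMK2, AT5G66220, and AT3G05345. Fold enrichment at these 7 ranged from 3.61 to 6.99 with MYB3R4 and from 3.66 to 5.69 with mNES. Over the 12 sites the summits of the 5 libraries spanned 19 to 75 bp.

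**Figure D1:**
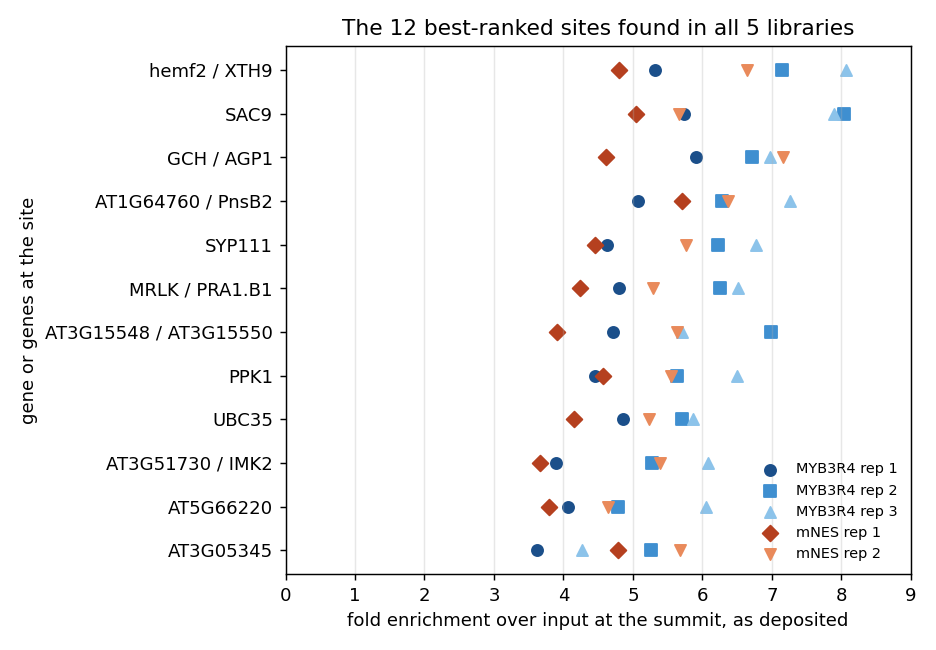
Fold enrichment over input at the summit, as deposited, for the 12 best-ranked of the 108 sites with a peak in all 5 libraries. Each point is 1 library, circles, squares and upward triangles for MYB3R4 replicates 1 to 3 and diamonds and downward triangles for mNES replicates 1 and 2. mNES replicate 2 falls among the MYB3R4 libraries at most sites, while mNES replicate 1 lies below all 3 of them at most sites. At the top site the 5 values run from 4.80, in mNES replicate 1, to 8.06.

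At equal list length, libraries of the same form shared 71.9% of their peaks on average (4 pairs of libraries) and libraries of different forms shared 69.2% (6 pairs). The difference of 2.68 percentage points was within the spread between pairs (exact permutation test over the 10 ways to call 2 of 5 libraries mNES, one-sided, p = 0.2, smallest possible 0.1). With lists cut by fold enrichment in place of -log10 p, the difference was 11.1 points (exact permutation p = 0.1). Sharing was 65.5% to 74.9% between MYB3R4 libraries, 79.2% between the mNES libraries and 57.3% to 83.0% between forms. The highest sharing between forms was that of MYB3R4 replicate 3 with mNES replicates 1 and 2, 80.4% and 83.0%, against a mean of 63.0% for MYB3R4 replicates 1 and 2 with mNES. Pairs of the same style of file name shared 77.7% and pairs of different styles 65.4%. Style and form are partly confounded here, since no mNES list has the first style. Without mNES replicate 1, whose peak names do not match its label, the same-form value was 0.93 points below the other-form value (-0.93), and in the second style alone it was 2.49 points below (-2.49).

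**Figure D2:**
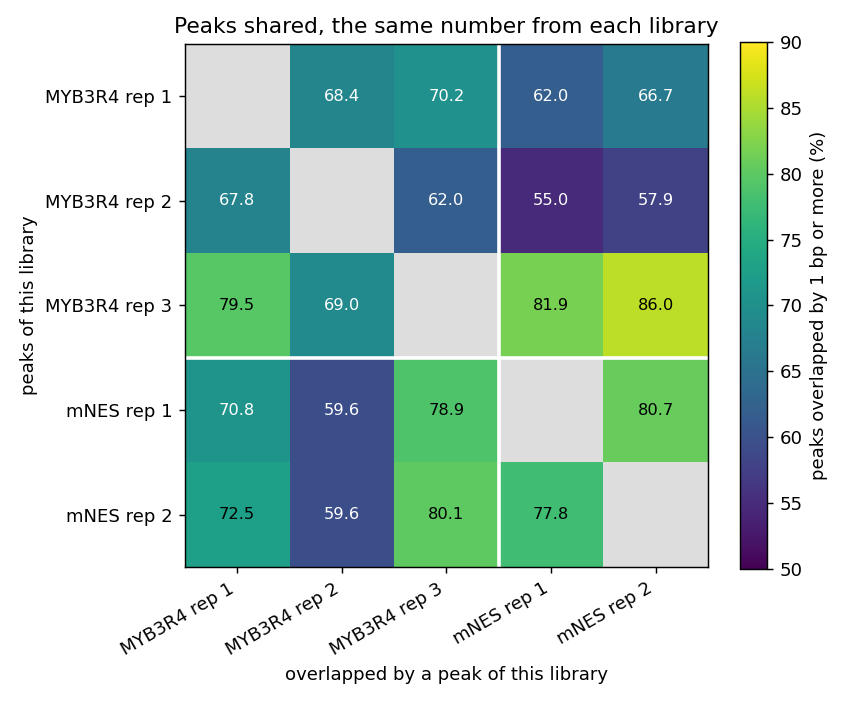
Percentage of the 171 strongest peaks of each library (rows) that overlap by 1 bp or more with one of the 171 strongest peaks of each other library (columns). White lines separate the forms. The highest cell, 86.0%, is that of MYB3R4 replicate 3 peaks found in mNES replicate 2, and the lowest, 55.0%, that of MYB3R4 replicate 2 peaks found in mNES replicate 1.

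Where peaks were shared, both forms had them at nearly the same place. At equal list length the median distance between the summits of overlapping peaks was 16.5 to 58 bp over the 10 pairs of libraries, each pair read from both of its libraries. Read from 1 library of each pair, MYB3R4 before mNES and lower replicate numbers first, it averaged 27.4 bp within a form and 36.3 bp between forms. The difference was -8.96 bp (exact permutation test over the same 10 ways, two-sided by absolute size, p = 0.2). Averaged over both directions, the values were 29.7 and 37.8 bp (difference -8.10 bp, exact permutation p = 0.4). Between 66.9% and 91.9% of shared peaks had summits within 100 bp, over both directions. MYB3R4 replicate 3 and the mNES libraries lay 26.3 bp apart on average over both directions. Over the 108 sites of all 5 libraries, the 5 summits spanned a median of 97 bp (interquartile range 60.8 to 254 bp), and up to 6023 bp at broad sites.

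Read in full, the mNES lists were nearly contained in the MYB3R4 lists, and the reverse did not hold. Of the peaks of mNES replicate 1, 83.0%, 87.1% and 88.9% were found in MYB3R4 replicates 1, 2 and 3, and of those of mNES replicate 2, 74.0%, 87.9% and 85.1%. In the other direction, 52.7% and 64.7% of the peaks of MYB3R4 replicate 3 were found in mNES replicates 1 and 2. Among the 3127 sites, 0 were in both mNES lists and no MYB3R4 list, and 15 were in 1 mNES list only. In contrast, 31 were in all 3 MYB3R4 lists and no mNES list, 120 in 2 MYB3R4 lists and no mNES list, and 2754 in a single MYB3R4 list. These counts move with list length, and MYB3R4 replicate 2 alone has 2705 peaks.

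The MYB3R4 peaks without a match in the mNES lists were mostly those of lower rank by -log10 p. The mNES lists hold only 171 and 215 peaks, so lower ranks of the longer MYB3R4 lists had to go unmatched in part. The part of list length in the shares below was not tested. Of the 50 strongest peaks of MYB3R4 replicates 1, 2 and 3, 6%, 4% and 0% were in neither mNES list. At ranks 101 to 200 these shares were 58%, 62% and 27%, and at ranks 201 to 300 they were 83%, 84% and 66%. In each of the 3 MYB3R4 libraries the share missing was higher at ranks 201 to 300 than among the 50 strongest peaks. From the mNES side, all of the 50 strongest peaks of each library (100%) had a peak in at least 1 MYB3R4 list, as did 98% of those ranked 51 to 100. The 3 strong exceptions in MYB3R4 replicate 1 lay at UBC22, AT4G10520 and PDF1, at fold enrichments of 3.12, 3.10 and 2.92, and those in MYB3R4 replicate 2 at AT3G20362 and at the CDK inhibitor gene ICK5 (fold enrichments 2.22 and 3.83).

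**Figure D3:**
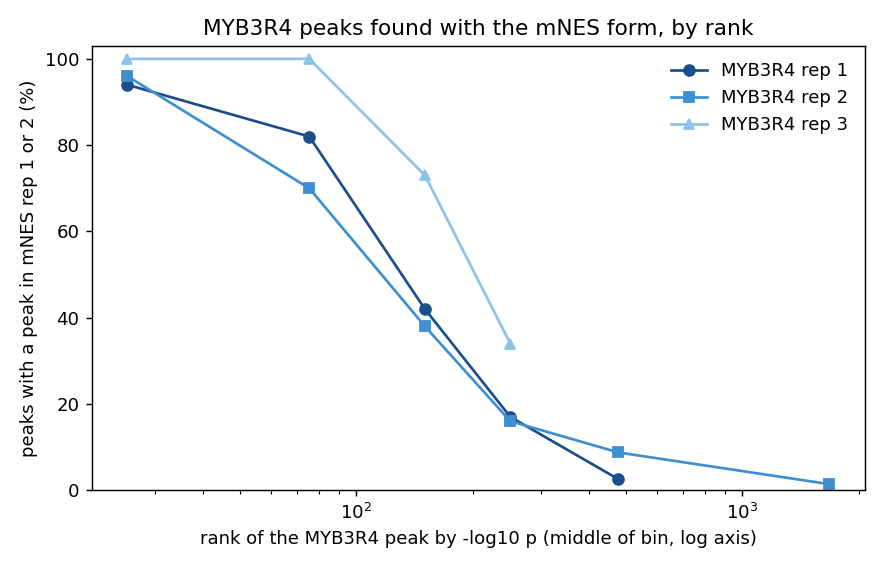
Percentage of MYB3R4 peaks that overlap a peak of mNES replicate 1 or 2 (vertical axis) against the rank of the MYB3R4 peak by -log10 p (log axis, middle of each bin), for each MYB3R4 library. All 3 lines start at 94% to 100% among the 50 strongest peaks and fall to 34% or less at ranks 201 to 300.

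At equal list length, one-sided sites were not in surplus with MYB3R4. Sites in both of a pair of MYB3R4 lists and in no mNES list numbered 20, 8 and 6 for replicates 1 and 2, 1 and 3, and 2 and 3. Sites in both mNES lists and in neither list of the same pairs numbered 19, 9 and 12. The means, 11.3 and 13.3, depended on the settings: they were 18 and 34.7 with peaks ranked by fold enrichment, 11 and 23.7 with a reciprocal overlap of 50%, and 13 and 24 with summits within 200 bp, each higher for mNES. The full lists gave 118, 34 and 71 against 7, 4 and 3, so MYB3R4 sites were in surplus in the full lists, which are of unequal length, and not at equal length.

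The 31 sites of all 3 full MYB3R4 lists and no mNES list lay below the strongest sites. Their median percentile by fold enrichment was 78.5, 89.6 and 51.8 in the full lists of MYB3R4 replicates 1 to 3, which differ in length. The best of them, chr5:1500559-1501188 at the ubiquitin-conjugating enzyme gene UBC22 (AT5G05080), had fold enrichments of 3.12, 3.71 and 2.86. AGP18 (AT4G37450), an arabinogalactan protein gene, had 2.81, 3.17 and 2.24. RbcX1 (AT4G04330), a gene of a Rubisco assembly chaperone, had 2.60, 3.77 and 3.02. Such values were well below those of the top common sites in the same libraries. The values at these 3 sites were above the median fold enrichments at the 33 common sites away from gene ends, 1.48, 1.60 and 1.74. In the order of fold enrichment, the best of the 31 ranked 41, 47.5 and 71.5 in MYB3R4 replicates 1 to 3. The others best ranked were at AT3G03680 and UNE7, AT5G55670 and AT5G55680, AT5G61997, AT5G26600 and AT5G26610, AT4G15830 and AT4G15840, AT5G67200, and AT4G10520. All 31 overlapped a peak in all 3 MYB3R1 lists, and so did all 30 sites of 3 MYB3R4 lists and 1 mNES list. The same held for 104 of the 120 sites of 2 MYB3R4 lists and no mNES list. It also held for 80 of the 108 sites of all 5 libraries, 42.6% of the sites in a single MYB3R4 list and 47.3% of all 3127 sites. The MYB3R1 lists are far longer, with 38173 peaks in all. At equal length 5 sites were in all 3 MYB3R4 lists and no mNES list: those at RbcX1, AT5G03870, UBC22, AT5G26600 and AT5G26610, and AT5G55670 and AT5G55680. The one at AT5G03870 was in the full list of mNES replicate 2.

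The 8 sites of both mNES lists and no MYB3R4 list at equal length were all in the full list of at least 1 MYB3R4 library. Of these, 2 lay near gene ends, against 60 of the 78 sites that all 5 equal-length lists shared. One was at AT3G07320 and CSLC6 (fold enrichment 2.41 and 3.02 with mNES) and the other at AT4G20430 and smB, 2.17 and 2.75. The remaining 6 had mNES fold enrichments from 1.40 to 2.80. The upper end was from chr5:26492584-26493092 alone, with 2.17 and 2.80. The others had 1.40 to 1.74 and ranked 154 to 171 by fold enrichment among the 171 peaks.

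A gene was called bound when a summit lay from 1000 bp outside to 200 bp inside either of its ends, without regard to strand. Among all 27340 nuclear protein-coding genes counted, 326 (1.19%) were bound in at least 2 MYB3R4 libraries and 109 (0.399%) in both mNES libraries. The 106 genes in both sets were 97.2% of the mNES genes and 32.5% of the MYB3R4 genes. At equal length the sets held 157 (0.574%) and 101 (0.369%) genes, and the 95 in common were 60.5% and 94.1% of them. The MYB3R4 set asks for any 2 of 3 libraries and the mNES set for both of 2. The MYB3R4 rule is thus easier to meet, also at equal length, and the set sizes are not like for like. Counted per library, the equal-length lists reached 161, 199 and 147 genes with MYB3R4 and 133 and 142 with mNES. In the full lists 3 genes were bound in both mNES libraries but not in 2 of MYB3R4: AT3G27540, TCP14 and OLEO1, each bound in 1 MYB3R4 library.

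Of 59 listed G2/M genes, 17 were bound in at least 2 MYB3R4 libraries (1.19% of all genes) and 10 in both mNES libraries (0.399% of all genes). These counts are from full lists of unequal length, and the MYB3R4 rule, 2 of 3 libraries, is easier to meet. At equal length the same rules gave 11 and 10 (0.574% and 0.369% of all genes). In the full lists, all 10 genes of both mNES libraries were also bound in all 3 MYB3R4 libraries, and 0.38% of all genes were bound in all 5 libraries. In at least 1 library 24 of the 59 were bound, against 9.4% of all genes. The list was written with results of these data known. Counted per library, the full lists reached 13, 23 and 16 of the 59 genes with MYB3R4 and 10 and 13 with mNES. The same libraries had calls at 1.05%, 9.14% and 1.00% of all genes with MYB3R4 and at 0.486% and 0.680% with mNES. At equal length they reached 11, 14 and 11 against 10 and 12. There 10 of the 59 were bound in all 5 libraries (0.307% of all genes) and 15 in at least 1 (0.969%). The equal-length shares were 20.3% ± 2.94 (SD, n = 3) and 18.6% ± 2.40 (SD, n = 2), which differed by less than the spread between libraries (difference 1.69 points, two-sided exact permutation p = 0.8). Without mNES replicate 1 the difference was -0.565 points.

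Of the B-type cyclins, regulatory subunits of mitotic kinases, the same 3 of the 15 listed A- and B-type cyclins were bound by both forms. CYC1BAT (AT5G06150) had fold enrichments of 3.52, 3.57 and 4.23 with MYB3R4 and 3.50 and 3.27 with mNES, with all summits within 27 bp. CYCB2;4 (AT1G76310) had 3.10, 3.99 and 4.88 against 3.32 and 3.24. CYCB2;2 (AT4G35620) had 2.54, 3.23 and 3.80 against 2.78 and 3.35. At CYC1BAT both mNES values lay just below all 3 MYB3R4 values, and at the other 2 genes the ranges overlapped. By rank of fold enrichment among the common sites of each library, the forms overlapped at CYC1BAT too. Its ranks were 24.5, 47 and 32 with MYB3R4 and 17 and 53 with mNES. CDC20.1 (AT4G33270) and CDC20.2 (AT4G33260), neighbours that encode activators of the anaphase-promoting complex, shared 1 peak of 3.45, 4.49 and 5.11 against 3.72 and 3.85.

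Besides SYP111, both forms were called at PLE (AT5G51600), a microtubule crosslinker of the phragmoplast, where fold enrichments were 2.29, 3.00 and 3.67 with MYB3R4 and 2.76 and 3.46 with mNES. CSLD5 (AT1G02730), a cellulose synthase-like protein of the cell plate, had 2.51, 3.33 and 2.90 against 2.17 and 3.13. TPX2 (AT1G03780), a microtubule-associated protein of the spindle, had 3.45, 4.26 and 5.07 against 3.15 and 4.73. At PLE, CSLD5 and TPX2 the ranges of the forms overlapped. PPK1 (AT1G77720) completed the 10 with 4.45, 5.64 and 6.50 against 4.56 and 5.55. The summits of the 5 libraries spanned 27 to 147 bp over these genes.

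The G2/M genes without a call in mNES mostly had low-ranked MYB3R4 peaks. HIK (AT1G18370), the kinesin HINKEL of the phragmoplast, was called in all 3 MYB3R4 libraries at 1.91, 3.27 and 2.31 and in no mNES library. EDE1, a microtubule-associated protein, AT2G28620, AT3G14190 and KINESIN-12B were called in MYB3R4 replicates 2 and 3, at 2.21 to 3.54 and 2.08 to 2.61. MYB3R4 replicate 2 alone, with the longest list, reached CYCB1;4, CYCB2;3, the kinesin gene POK2, the Aurora kinase gene AUR1, the checkpoint gene BUB3.1 and AT2G20635, at 1.95 to 2.78. In MYB3R4 replicate 3, the G2/M genes called in both mNES libraries had a median rank of 28.5 by -log10 p (6 to 139) and the 5 called in no mNES library a median rank of 233 (180 to 264). In MYB3R4 replicate 2 these medians were 37 (8 to 162) and 678 (74 to 1783). There 3 of the 11 genes without an mNES call, AT2G28620, HIK and EDE1, ranked within the 171 strongest peaks. The mNES lists end at ranks 171 and 215, and the part of list length in the missing calls was not tested.

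Of the remaining checkpoint genes, MAD2 had fold enrichments of 2.76, 3.37 and 3.55 with MYB3R4 and 3.13 in mNES replicate 2, with no call in mNES replicate 1. BUBR1 was called in MYB3R4 replicates 1 and 2, at 2.09 and 1.90, and in mNES replicate 2, at 2.86, with summits spread over 946 bp. TES, a kinesin related to HIK, was called in mNES replicate 2 alone, at 2.42. The calls at these 3 genes differed between libraries of the same form as well as between forms. At 35 of the 59 G2/M genes no library had a call.

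**Figure D4:**
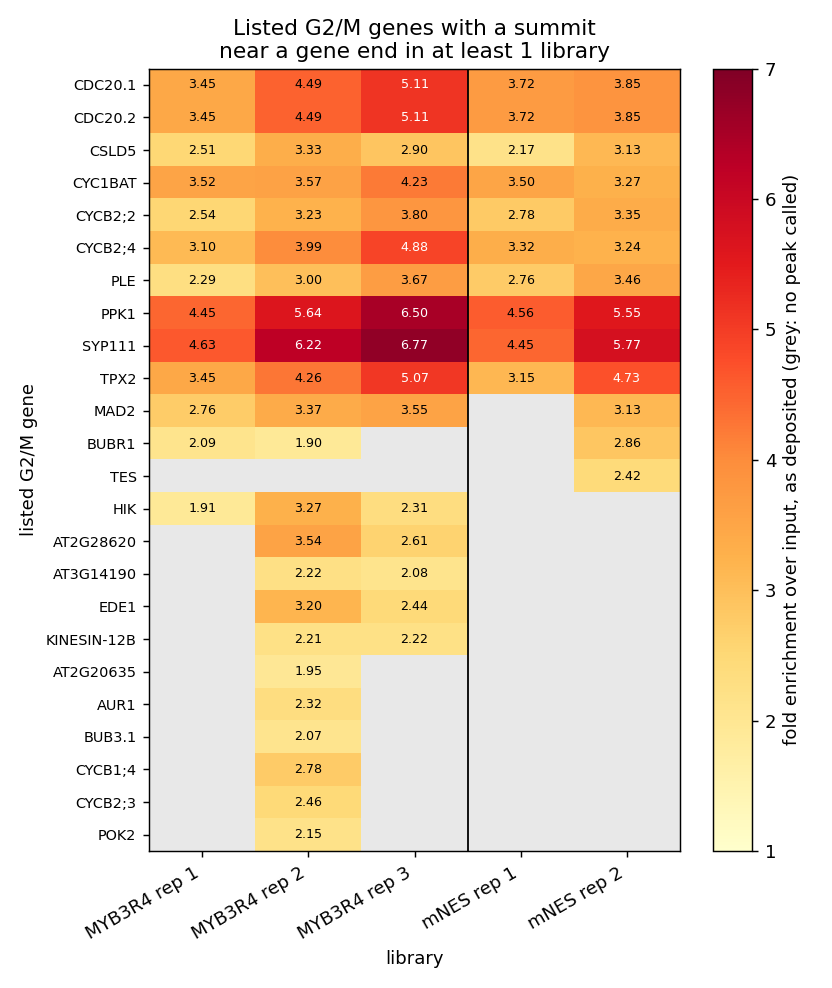
Fold enrichment over input, as deposited, at the 24 listed G2/M genes bound in at least 1 library, with 1 column per library and MYB3R4 to the left of the black line. Grey marks no call. The upper 10 genes are called in all 5 libraries, and the lower 11 are called with MYB3R4 alone and reach at most 3.54.

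Outside the G2/M lists, few listed genes were called in more than 1 library. Of 13 listed transcription regulators of the cell cycle, AT1G63100 was called in all 5 libraries, at 4.60, 5.30 and 5.23 with MYB3R4 and 3.37 and 4.29 with mNES. At that gene both mNES values lay below all 3 MYB3R4 values. By rank of fold enrichment the forms did not overlap there either, as at 26 of the 108 common sites (24.1%), whose tests are given below. PC-MYB1, the gene of MYB3R1, was called in MYB3R4 replicate 1 at 2.22 and in mNES replicate 1 at 2.13, at different sites 6902 bp apart. The MYB3R4 gene itself (MYB3R-4, AT5G11510) was called in MYB3R4 replicate 1 alone, at 1.24.

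Of 26 CDK inhibitor and D-type cyclin genes, AT5G40460 was called in all 5 libraries, at 2.76, 3.29 and 3.12 with MYB3R4 and 2.76 and 3.39 with mNES. Of 22 S phase, 37 cytokinin and 15 nuclear transport genes, 0 were bound in at least 2 MYB3R4 libraries and 0 in both mNES libraries. By the same rules 1.19% and 0.399% of all genes were bound, so lists of this size would hold few such genes or none. The long list of MYB3R4 replicate 2, with calls at 9.14% of all genes, had calls at 10 of the 26, 4 of the 22, 10 of the 37 and 3 of the 15. CRF2, a cytokinin response factor gene, was the 1 cytokinin gene also called with mNES, at 2.55 in MYB3R4 replicate 2 and 2.69 in mNES replicate 2. Of 11 reference genes, UBQ10, a polyubiquitin gene, had 4.74, 4.61 and 3.31 with MYB3R4 and 2.78 in mNES replicate 2, with no call in mNES replicate 1.

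Within the 108 common sites, relative strength was compared by ranking the sites in each library and testing the ranks, as normal scores, with limma. By fold enrichment 0 sites (0.0%) passed an adjusted p of 0.05 (limma, Benjamini-Hochberg), and 10 had an unadjusted p below 0.05. Ranking by -log10 p, the alternative measure, gave 38. The lowest adjusted p by fold enrichment was 0.246, and groups did not overlap at 26 sites (24.1%), 12 of them higher with MYB3R4 and 14 lower. The largest differences near genes were at VPS2.2, a gene of the ESCRT-III machinery, higher with MYB3R4 by 1.02 ± 0.26 (SE) in score, and at AT3G05345, lower by 0.91 (-0.91 ± 0.25). Neither passed the adjusted threshold (adjusted p = 0.246 for both by limma). Spearman correlations of fold enrichment over the 108 sites, given as a description since all sites share libraries, were 0.894 to 0.939 between MYB3R4 libraries, 0.849 between mNES libraries and 0.826 to 0.897 between forms.

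At common sites away from gene ends, both mNES libraries had higher deposited fold enrichments than all 3 MYB3R4 libraries at the median. Of the 108 common sites, 75 had summits near a gene end and 33 lay elsewhere, 20 of these in 3 crowded windows on chromosome 4 between 3.9 and 4.1 Mb and chromosome 5 between 11.7 and 11.8 Mb. Median fold enrichment at the 75 gene-end sites was 3.07, 3.72 and 3.80 with MYB3R4 and 2.85 and 3.52 with mNES. At the 33 other sites it was 1.48, 1.60 and 1.74 with MYB3R4 and 1.94 and 2.43 with mNES. There the groups did not overlap, with both mNES values above all 3 MYB3R4 values. Within each library the gene-end median was 2.08, 2.33 and 2.18 times the other with MYB3R4 and 1.47 and 1.45 times with mNES.

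The ratio averaged 2.20 ± 0.127 (SD, n = 3) with MYB3R4 and 1.46 ± 0.0135 (SD, n = 2) with mNES, a difference of 0.738. This measure was chosen after its values were seen and is given as a description. By rank of fold enrichment within each library, groups did not overlap at 7 of these 33 sites and at 19 of the 75 gene-end sites. Over all 108 common sites the share was 24.1%, and the 7 included sites higher with either form. In the ratio of gene-end to other fold enrichment, MYB3R4 replicate 3, of the same style of file name as mNES, lay with the other MYB3R4 libraries. Within that style the difference in this ratio was 0.721. Without mNES replicate 1 it was 0.748, and with the crowded windows left out, which leaves 13 sites away from gene ends, it was 0.596.

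**Figure D5:**
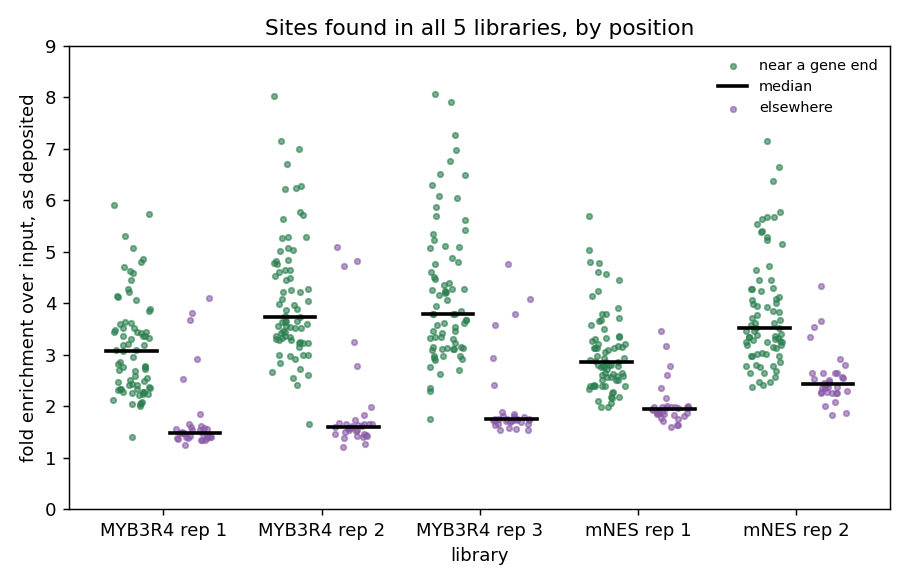
Fold enrichment over input, as deposited, at the 108 sites found in all 5 libraries, for the 75 sites near a gene end (green) and the 33 elsewhere (purple). Each point is 1 site and black bars are medians. The purple medians are 1.48 to 1.74 with MYB3R4 and 1.94 and 2.43 with mNES, while the green medians of the forms overlap.

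The same sites ranked high by -log10 p with mNES. Of the 20 common sites of highest -log10 p, 2, 1 and 1 lay away from gene ends in MYB3R4 replicates 1 to 3, against 14 and 18 in mNES replicates 1 and 2. Median -log10 p away from and near gene ends was 18.9 and 27.3 in MYB3R4 replicate 1 and 25.9 and 38.8 in replicate 2. In MYB3R4 replicate 3 the order was reversed, 33.7 and 28.7, as in mNES replicate 1 (43.6 and 17.1) and replicate 2 (62.3 and 18.5). The limma test on ranks of -log10 p called 38 of 108 sites (35.2%) at an adjusted p of 0.05, 14 higher with MYB3R4 and 24 with mNES. All 14 higher with MYB3R4 lay near gene ends, among them VPS2.2, SAC9, XTH9, AGP1 and UBC35. Ranks over a mixed set are relative, and when the 75 gene-end sites were ranked among themselves 5 were called, 2 higher with MYB3R4 and 3 with mNES. Of the 24 higher with mNES, 23 lay elsewhere. Single libraries decide this count: it was 0 without MYB3R4 replicate 1, 5 without MYB3R4 replicate 2, 0 without mNES replicate 1 and 2 without mNES replicate 2, but 48 without MYB3R4 replicate 3. With the crowded windows left out it was 12 of 88.

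Of the 108 common sites, 2 contain ribosomal RNA genes. At chr2:917-10503, which contains the rRNA genes AT2G01010 and AT2G01020, fold enrichment was 1.40, 1.65 and 1.75 with MYB3R4 and 1.99 and 2.65 with mNES. This site, the 1 of the 24 counted as near a gene end, ranked 64, 44 and 22 by -log10 p among the 108 with MYB3R4 and 1 and 2.5 with mNES. At chr3:14191628-14205226, which contains the rRNA genes AT3G41768 and AT3G41979, fold enrichment was 1.39, 1.66 and 1.74 against 1.98 and 2.65. Both mNES libraries were above all 3 MYB3R4 libraries at each of these sites. Reads from near-identical copies of such genes cannot be placed with certainty, and their part in these values was not tested.

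Over all peaks at equal length, summits near gene ends made up 64.9%, 81.9% and 59.6% with MYB3R4 and 55.0% and 58.5% with mNES. The means were 68.8% ± 11.6 (SD, n = 3) and 56.7% ± 2.48 (SD, n = 2), and the difference of 12.1 points was about as large as the SD among MYB3R4 libraries (two-sided exact permutation p = 0.2, the smallest possible). Both mNES values lay below all 3 MYB3R4 values, with mNES replicate 2 and MYB3R4 replicate 3 close together. In the full lists the order did not hold, with 32.7%, 73.3% and 63.0% against 55.0% and 61.4%. Windows at gene ends cover 42.2% of nuclear positions.

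Among the 5 libraries, OLEO1 (AT4G25140), which encodes an oleosin of seed oil bodies, was called only in the 3 of the second style of file name. The cause was not tested. At OLEO1 fold enrichment was 16.4 in MYB3R4 replicate 3 and 4.35 and 16.7 in mNES replicates 1 and 2. No peak was called there in MYB3R4 replicates 1 and 2. By fold enrichment it ranked 1, 8 and 1 in the 3 lists that had it. In MYB3R1 it was 2.56 and 3.91 in replicates 1 and 2, of the first style, and 4.73 in replicate 3, of the second. The second-style peaks were 2120 to 2478 bp wide and the first-style peaks 614 and 777 bp.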

How the data were processed

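Per the labels, chromatin from dissected inflorescence meristems was immunoprecipitated with an anti-GFP antibody and sequenced. The submitters' processing notes name FastQC, Trimmomatic, Bowtie2, Picard and the build TAIR10. The peak caller and the input used for each list are not given in the sources used here, and input samples were not analysed. Per the file names, peaks were called against input, and reads had been extended to 400 bp. The deposited narrowPeak columns hold a score of 10 times the -log10 q-value, fold enrichment over input (a ratio), -log10 p-value, -log10 q-value and the other column, the distance of the summit from the start in bp. Read depth is unknown, so no interval or detection limit is given. Fold enrichments and p-values rank peaks within a list, and fold enrichments are printed as deposited.

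The members, gene lists and tests were chosen with earlier results of these data known. Peaks were matched by overlap of 1 bp, and lists were cut to 171 peaks by -log10 p for equal length. Genes (27340 nuclear protein-coding, outside the stretch left out) come from a RefSeq table of TAIR10.1, used for names and neighbourhood. All 184 listed identifiers were found, and 183 counted. Named sites were the 12 common sites of best mean rank, up to 10 sites of each form alone, the largest differences in relative strength, listed genes with a call, and MYB3R4 itself. Exact permutation tests were enumerated over libraries, and limma 3.58.1 in R 4.3.3 tested ranks. The procedure was tested on simulated data. Promoter motifs were not analysed here.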

Additional observations from a re-analysis of the deposited data

How the results depend on the processing

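The difference in site sharing (2.68 points, same form minus other form) was 11.1 with peaks ranked by fold enrichment (exact permutation p = 0.1, the smallest possible), -7.26 with full lists, -2.49 in the second style of name, and -0.93 to 10.7 with each library left out. For gene ends (12.1 points) full lists gave -1.84, the 100 strongest peaks and ranking by fold enrichment each gave 22.3, and leaving out libraries 5.56 to 16.7; for G2/M genes (1.69 points) the 100 strongest peaks and the fold ranking each gave 3.11 and leaving out libraries gave -0.565 to 3.39, negative without mNES replicate 1. Peak numbers differed by 284 to 1486.5 and summit distances by -19.8 to -2.13 bp when libraries were left out, with no change of sign. Sites of 1 form averaged 11.3 for MYB3R4 and 13.3 for mNES over pairs of libraries. They averaged 74.3 and 4.67 with full lists, 18 and 34.7 with peaks ranked by fold enrichment, and 7 and 7.67 without windows crowded in any library. A reciprocal overlap of 50% gave 11 and 23.7, and summits within 200 bp gave 13 and 24. Leaving out libraries gave 6 to 20 for MYB3R4 and 9 to 19 for mNES. Sites called in the test of relative strength numbered 0 by fold enrichment, 0 to 1 with libraries left out, and 38 by -log10 p. The latter count became 12 without crowded windows, 5 at gene-end sites only (2 higher with MYB3R4, 3 with mNES) and 0 to 48 with libraries left out. The ratio of gene-end to other fold enrichment differed by 0.671 to 0.797 with libraries left out. The alternatives of crowded windows in at least 3 libraries, the -log10 p result, the ratio and the summit distance over both directions were chosen after seeing the data. The cause of these changes was not tested.

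No label says that replicate numbers pair libraries, and the deviations of replicates 1 and 2 from each other correlated at 0.0807 between the forms over 108 sites. With the replicate number as a block over replicates 1 and 2, the differences were 1486.5 peaks, 16.7 points for gene ends and 2.54 points for G2/M genes (exact permutation p = 0.5, the smallest possible), and limma called 0 sites by fold enrichment and 49 by -log10 p.

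The planned count of promoter motifs was not run. The smallest p of the exact tests of 3 against 2 libraries is 0.1 or 0.2, above 0.05, and unknown depth limits what a missing peak shows.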

Other observations

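Peaks left out by the rule were numerous. The mitochondrial genome held 120, 20 and 166 peaks in MYB3R4 replicates 1 to 3 and 78 and 79 in mNES replicates 1 and 2. The stretch of chromosome 2 between 3.2 and 3.7 Mb held 132, 12 and 156 with MYB3R4 and 56 and 41 with mNES.

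Some values of fold enrichment recurred across chromosomes. In mNES replicate 2, 4 of the 108 common sites, on chromosomes 2, 3, 3 and 4, had the same fold enrichment of 2.65, equal to all 5 decimals deposited. In MYB3R4 replicate 3, 3 of these sites, on chromosomes 3, 3 and 4, shared 1.74. In mNES replicate 1 the same 3 sites shared 1.98, and 3 other common sites, on chromosomes 1, 4 and 5, shared 2.39. In MYB3R4 replicates 1 and 2 no value was shared by more than 2 common sites. The 4 sites of mNES replicate 2 include both common sites that contain rRNA genes.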
